A study of Homo sapiens with 18 samples.

Results

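The HIST1 locus on the short arm of chromosome 6 (6p22) holds most human replication-dependent histone genes, and the MYC ChIP-seq peaks called there are described here in cells with and without knockdown of the histone methyltransferase G9a. Members were all peaks whose summit lay in 1 of 3 hg19 windows on chromosome 6: cluster 1 (chr6:26015000-26290000), cluster 2 (chr6:27090000-27125000) and cluster 3 (chr6:27770000-27870000). Peaks of different libraries that overlapped by at least 1 bp were merged. This gave 63 member regions from 136 member peaks, of 43222 regions and 150870 peaks on chromosomes 1 to 22 and X. Of the 63 regions, 36 lay in cluster 1, 7 in cluster 2 and 20 in cluster 3. A pair of stretches served for comparison: the flank (chr6:26290001-27089999), between clusters 1 and 2, with 27 regions, and the gap (chr6:27125001-27769999), between clusters 2 and 3, with 34.

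All libraries came from MCF10A.PM cells, a derivative of the immortalised human breast epithelial line MCF10A that carries ectopic MYC (pBABE-hygro-MYC) and the mutant kinase PI3KH1047R. The cells carried a doxycycline-inducible pLKO-tetON-puro hairpin, which was the scrambled control shSCR or 1 of 2 hairpins against G9a, labelled shG9a 1 and shG9a 4 (here shG9a_1 and shG9a_4). Every group, the control included, received doxycycline at 2 µg/mL for 72 h. Each group had 3 MYC libraries, numbered 1 to 3, made with the N262 antibody. The 9 matching input samples had no file used here. The labels do not say whether the replicates were separate cultures, so p-values measure the spread between these libraries. G9a itself was not measured in these files, and because the line expresses MYC from a vector, the MYC bound here is not the endogenous protein alone.

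Replication-dependent histone genes encode the H1, H2A, H2B, H3 and H4 proteins that package newly copied DNA. They are small, lack introns, end in a stem-loop instead of a poly(A) tail, and are transcribed together in S phase at the nuclear histone locus body, where the coactivator NPAT acts. MYC, with its partner MAX, binds the E-box CACGTG and related letters, mostly at promoters that are already active. G9a (EHMT2) places mono- and dimethyl marks on lysine 9 of histone H3.

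The RefSeq names for GRCh38.p14, a different build from that of the peaks, list 53 protein-coding replication-dependent histone genes in the 3 clusters. Cluster 1 has 32 (5 H1, 4 H2A, 8 H2B, 7 H3 and 8 H4 genes), cluster 2 has 5 and cluster 3 has 16. One other protein-coding gene lies within these clusters, in cluster 1. Between clusters 1 and 2 the table lists 9 protein-coding genes and 47 tRNA genes, and between clusters 2 and 3 it lists 5 and 51. The order of the clusters by regions was that by genes (36, 7 and 20 regions against 32, 5 and 16 genes). Without an hg19 annotation no peak was assigned to a gene.

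The promoters below, each the 250 bases before the annotated start on the gene's own strand, show what letters these promoters hold. For the H1, H2A, H2B and H4 classes, the first gene along the chromosome that had a promoter sequence is given. H4C1, which precedes H4C2, had none. H3C6 is added as the histone promoter that holds CACGCG. H3C6 lies on the plus strand and the other 4 on the minus strand, and the sequences come from RefSeq, GRCh38.p14. Capitals mark the E-box CACGTG and its variants CACGCG and CATGTG, the octamer ATTTGCAT of H2B genes, the TATA element TATAAA and the CCAAT box, or the reverse complement of any of them.
H1-1: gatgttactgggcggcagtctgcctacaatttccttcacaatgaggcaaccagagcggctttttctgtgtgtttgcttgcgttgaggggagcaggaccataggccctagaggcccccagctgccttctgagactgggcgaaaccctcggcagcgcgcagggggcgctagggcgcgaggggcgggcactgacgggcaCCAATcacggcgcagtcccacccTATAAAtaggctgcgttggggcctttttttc
H2AC4: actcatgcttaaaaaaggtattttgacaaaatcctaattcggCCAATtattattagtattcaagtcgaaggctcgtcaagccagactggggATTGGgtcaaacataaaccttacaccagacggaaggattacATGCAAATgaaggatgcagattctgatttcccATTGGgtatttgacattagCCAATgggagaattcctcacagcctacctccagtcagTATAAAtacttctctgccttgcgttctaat
H2BC3: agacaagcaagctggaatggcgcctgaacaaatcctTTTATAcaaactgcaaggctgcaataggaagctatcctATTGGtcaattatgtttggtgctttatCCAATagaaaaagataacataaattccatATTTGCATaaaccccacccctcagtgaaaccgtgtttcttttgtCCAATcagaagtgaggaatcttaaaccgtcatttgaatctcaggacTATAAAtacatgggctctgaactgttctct
H3C6: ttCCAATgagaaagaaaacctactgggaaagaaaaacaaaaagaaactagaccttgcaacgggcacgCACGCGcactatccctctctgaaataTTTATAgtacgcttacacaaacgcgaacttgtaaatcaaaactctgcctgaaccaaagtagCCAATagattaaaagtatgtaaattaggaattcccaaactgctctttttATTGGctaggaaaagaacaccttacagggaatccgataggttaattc
H4C2: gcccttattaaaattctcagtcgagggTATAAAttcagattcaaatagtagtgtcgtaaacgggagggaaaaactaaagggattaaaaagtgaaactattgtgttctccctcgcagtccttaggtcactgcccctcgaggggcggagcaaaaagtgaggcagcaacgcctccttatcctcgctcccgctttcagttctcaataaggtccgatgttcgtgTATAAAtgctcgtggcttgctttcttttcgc

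Of the 53 genes, 48 had an entry in the promoter table, which covers 250 bases before to 50 after the start. The E-box CACGTG was found in 0 of 48, against 8.77% of 27305 genes with an entry. CACGCG was found in 1 of 48 (13.5% of all) and CATGTG in 0 (13.4% of all). The next 3 motifs were added after the data were seen. The octamer ATTTGCAT, the site of OCT1 known from H2B promoters, was in 20 of 48 (2.19% of all), and 11 of the 14 H2B and 8 of the 10 H2A promoters held it. TATAAA was in 32 of 48 (14.0% of all) and CCAAT in 41 of 48 (39.7% of all). CCAAT stood in all 6 H1, all 10 H2A, all 14 H2B and all 8 H3 promoters and in 3 of the 10 H4 promoters. Both strands were searched, and none of the 6 motifs contains another, though matches can overlap. These matches describe letters in the window and do not place a peak.

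In the control, MYC peaks were dense at the histone clusters. The 3 shSCR libraries had 41, 46 and 18 member peaks, which is 100, 112 and 43.9 peak summits per Mb. The flank of the same libraries had 18.8, 28.8 and 12.5 per Mb, and the gap 31.0, 40.3 and 15.5. Density at the clusters was 5.33, 3.90 and 3.51 times that of the flank. With G9a knocked down the contrast was small. The clusters held 0, 9.76 and 19.5 peaks per Mb with shG9a_1 and 4.88, 26.8 and 14.6 with shG9a_4, against 0, 10.0 and 11.3 and then 10.0, 16.3 and 12.5 in the flank. The ratio of the 5 shG9a libraries with peaks there was 0.488 to 1.73, below every shSCR value. Over all 9 libraries the clusters exceeded the flank by 23.5 peaks per Mb (two-sided exact sign-flip permutation over libraries, p = 0.0469) and the gap by 23.2 (exact p = 0.00781). In shSCR the excess over the flank was 31.4 to 83.4 per Mb and in the shG9a libraries -5.12 to 10.6. With 1 library left out in turn the p for the flank lay between 0.0312 and 0.0938 (exact permutation). With only peaks of −log10 q of at least 5 the excess over the flank was 11.0 per Mb (exact permutation p = 0.219).

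**Figure D1:**
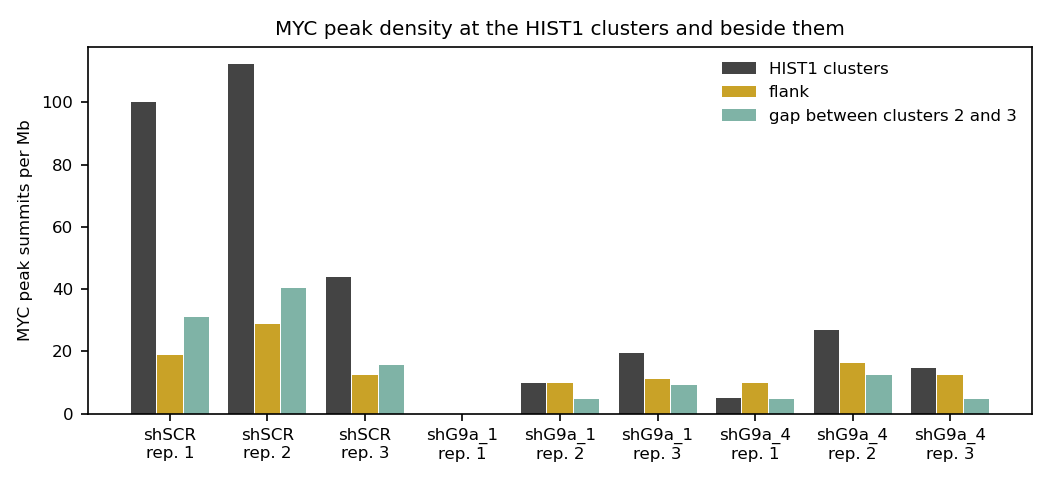
MYC peak summits per Mb (y axis) in each of the 9 libraries (x axis), with a bar each for the 3 HIST1 clusters together, the flank and the gap between clusters 2 and 3. The shSCR cluster bars stand at 100, 112 and 43.9, and no shG9a cluster bar passes 26.8.

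Fewer member peaks were called in every shG9a library than in any shSCR library. The counts were 0, 4 and 8 with shG9a_1 and 2, 11 and 6 with shG9a_4, against 41, 46 and 18 in shSCR, so the groups do not overlap. The shSCR mean was 35.0 ± 14.9 (SD, n = 3). Over both hairpins it was 5.17 ± 4.02 (SD, n = 6), which is 85.2% lower (exact permutation test, two-sided, p = 0.0238, the smallest that 3 against 6 libraries allow). Library 1 of shG9a_1 had 113 peaks genome-wide, against 11168 to 34738 in the others, and none in the clusters (0 of 113, which allows a share of up to 2.65%, counting error only). Without it the shG9a mean was 6.20 ± 3.49 (n = 5), 82.3% below shSCR (exact p = 0.0357, again the smallest possible). Leaving out any 1 shSCR library left differences of 24.3 to 38.3 peaks, each with an exact permutation p of 0.0714, the smallest that 2 against 6 libraries allow. Each hairpin alone gave an exact p of 0.10, the smallest that 3 against 3 libraries allow. The hairpins differed by 2.33 peaks (exact permutation p = 0.60).

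All lists were shorter with the hairpins, and the member counts have to be read beside that. Whole lists had 29827, 34738 and 20118 peaks in shSCR, 113, 11462 and 13068 with shG9a_1 and 11168, 17454 and 12922 with shG9a_4. These too do not overlap between shSCR and the hairpins. Their mean was 60.9% lower with the hairpins (53.2% without the 113-peak library). Flank counts were 15, 23 and 10 in shSCR, 0, 8 and 9 with shG9a_1 and 8, 13 and 10 with shG9a_4, a mean 50.0% lower (exact permutation p = 0.0714). Gap counts were 20, 26 and 10, then 0, 3 and 6, then 3, 8 and 3, a mean 79.5% lower. The percentages for the clusters (85.2%) and the gap (79.5%) were thus the larger ones, and that for the flank the smaller.

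Member peaks were 0.137%, 0.132% and 0.0895% of the shSCR lists, 0%, 0.0349% and 0.0612% of the shG9a_1 lists and 0.0179%, 0.0630% and 0.0464% of the shG9a_4 lists. Every shSCR share was above every shG9a share, with a difference of 0.0825 percentage points (exact permutation p = 0.0238) or 0.0751 without the 113-peak library (exact p = 0.0357). The flank share averaged 0.0554% in shSCR and 0.0604% with the hairpins, a difference of -0.00496 points (shSCR less shG9a, exact permutation p = 0.690). Without that library the hairpin mean was 0.0724% and the difference -0.0170 points (exact permutation p = 0.0357). When each list, the 113-peak library left out, was limited to its 11168 strongest peaks, the clusters held 5, 4 and 8 peaks in shSCR, 3 and 6 in libraries 2 and 3 of shG9a_1 and 2, 6 and 4 with shG9a_4. These counts overlap, and the difference in share was 0.0131 points (exact permutation p = 0.429). The smaller difference was not shown to be 0, and the shG9a_4 library 1 list has no peak beyond that number.

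**Figure D2:**
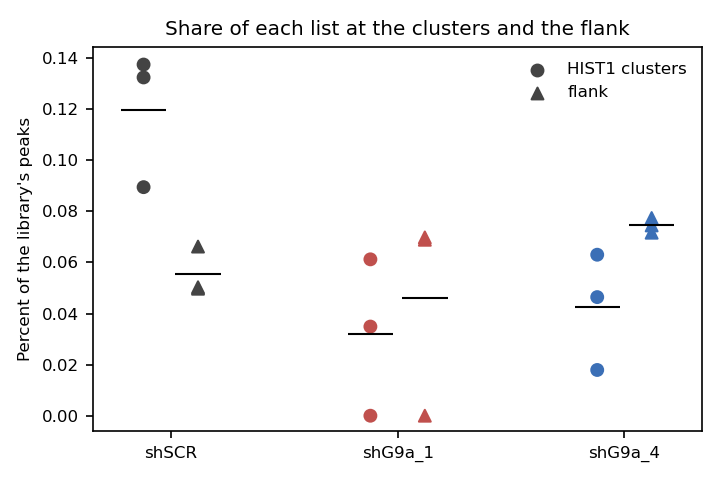
Percent of each library's peak list (y axis) that lay in the HIST1 clusters (circles) or the flank (triangles), by hairpin (x axis), with 1 symbol per library and a line at each group mean. Circles lie between 0.0895 and 0.137 in shSCR and at or below 0.0630 with the hairpins.

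A comparison within each library, chosen after the data were seen, set cluster peaks against cluster and flank peaks together. Clusters made up 73.2%, 66.7% and 64.3% of that sum in shSCR, 33.3% and 47.1% in libraries 2 and 3 of shG9a_1 and 20.0%, 45.8% and 37.5% with shG9a_4. No shG9a value reached the lowest shSCR value, and the means were 68.1% and 36.7% (difference 31.3 points, exact permutation p = 0.0357, the smallest that 3 against 5 libraries allow). With equal list lengths the difference was 9.01 points (exact permutation p = 0.179). Against the gap, the cluster share was 9.36 points higher in shSCR (exact permutation p = 0.107).

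By cluster, cluster 1 had 23, 30 and 11 peaks in shSCR, 0, 1 and 5 with shG9a_1 and 1, 6 and 2 with shG9a_4 (exact permutation p = 0.0238). Cluster 3 had 13, 13 and 5, then 0, 2 and 2, then 1, 3 and 2 (exact permutation p = 0.0238). Cluster 2, the shortest, had 5, 3 and 2, then 0, 1 and 1, then 0, 2 and 2 (exact permutation p = 0.0714). Mean counts were 88.3%, 70.0% and 83.9% lower with the hairpins in clusters 1, 2 and 3, against 60.9% for whole lists. Whole lists do not overlap between shSCR and the hairpins either, so these p-values do not set a cluster apart from them. Whether the clusters differ from each other, or each from its list, was not tested. Of 31 exact tests run on these clusters and their surroundings, 13 were at or under 0.05 before adjustment, and none after Benjamini-Hochberg adjustment over all 31 (smallest adjusted p = 0.0923).

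Cluster peaks in shSCR were weaker than the list as a whole. Their median fold enrichment, the authors' value at the summit, was 5.59, 5.64 and 6.24 in shSCR libraries 1 to 3, against 7.48, 6.30 and 9.84 in the flank and 6.60, 6.67 and 6.92 over the whole list. With the hairpins, where 2 to 11 peaks were left, the cluster median was above the list median in 3 of 5 libraries (7.14 against 6.37 in shG9a_1 library 2, and 7.30 against 6.24 and 6.47 against 6.40 in shG9a_4 libraries 1 and 3) and below it in the other two (5.39 against 6.62 in shG9a_1 library 3 and 5.78 against 6.77 in shG9a_4 library 2). In the 7 libraries with at least 3 peaks in both places, the cluster median differed from the flank median by -1.66 (clusters less flank, exact sign-flip permutation p = 0.0156, the smallest 7 libraries allow), and was 0.38 above that of the gap (exact p = 0.422). Library 1 of shG9a_4, left out for its 2 cluster peaks, went the other way, with 7.30 against 6.46 in the flank. Read pileups recovered from the deposited fold and p-value show what these folds mean in reads. Median summit pileups of member peaks were 9, 10.5 and 10 reads in shSCR, with a range of 6 to 22, while flank medians were 16, 11 and 15. The largest pileup at any member peak in the shG9a libraries was 21. Local background at the shSCR member peaks was close to the list median in libraries 1 and 2 (0.78 against 0.83 reads and 1.00 against 1.00). It was higher in library 3 (0.74 against 0.60).

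Regions in the clusters lay close together. The median distance to the nearest region was 375 bp, against 3988 bp in the flank, 1997 bp in the gap and 3240 bp over all regions. Of the 63 regions, 49 (77.8%) had another within 1 kb, against 38.2% of all. A single library called 29 of the 63 (46.0%), against 48.1% in the flank, 44.1% in the gap and 38.8% of all regions. All 3 shSCR libraries called 10 (15.9%), against 29.6% in the flank, 14.7% in the gap and 32.9% of all. Another 30 were in 1 shSCR library and 21 in 2. Of the 61 called in any shSCR library, 43 (70.5%) were called in no shG9a library, against 56% in the flank, 63.6% in the gap and 51.7% of all such regions. The 2 regions without a shSCR call were at chr6:27112689-27112839 (fold 5.01 in shG9a_4 library 2) and chr6:27806380-27806553 (fold 6.49 in shG9a_1 library 2). Both lay within 1 kb of a region called in all 3 shSCR libraries, chr6:27113614-27114084 for the first and chr6:27805016-27806271 for the second. No member region was gained, that is, absent from shSCR and called in at least 2 libraries of each hairpin, and only 0.00925% of all regions were. No member region was called in all 3 shSCR and at least 5 shG9a libraries, against 12.1% of all regions, 6 of 27 in the flank and 1 of 34 in the gap.

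**Figure D3:**
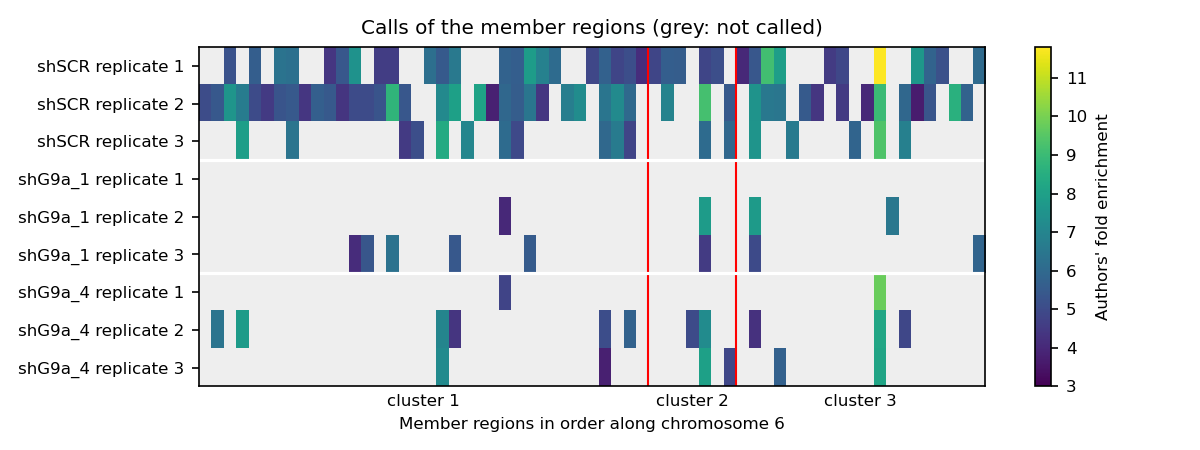
Each column is 1 of the 63 member regions in chromosome order and each row a library, with colour for the authors' fold enrichment and grey for no call. Red lines part the 3 clusters, and the shSCR rows are filled far more densely than the shG9a rows.

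The 10 regions called in all 3 shSCR libraries (reproducible regions) were followed one by one. A region is called lost where no shG9a library called it and kept where at least 5 of the 6 did. Of these, 3 were lost, 30% (exact binomial 95% interval 6.67 to 65.2%), against 9.49% of all 14209 reproducible regions. None was kept (upper limit 30.8%), against 36.9% of all. With shG9a_1 alone 7 of 10 were uncalled (25.3% of all) and with shG9a_4 alone 3 of 10 (13.5% of all). The 113-peak library of shG9a_1 called 0 of the 10, so that hairpin had fewer libraries able to call a region. With this library left out and 1 missed call still allowed, 1 member was kept, and the share of all regions was not computed. Of the 8 reproducible flank regions, 0 were lost and 6 were kept. Of the 5 in the gap, 0 were lost and 1 was kept. Without shSCR library 3, 27 member regions were reproducible over the other 2 control libraries and 15 were lost. The share of all regions lost under that rule was not computed, and the 9.49% above is for regions in all 3 control libraries. With equal list lengths 1 was reproducible and it was not lost. The intervals cover counting error only and take neighbouring regions as independent, and the genome-wide shares are over regions of every strength, of which the members are among the weaker.

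The 3 lost regions all lay in cluster 1. At chr6:26045555-26045903 the fold in shSCR libraries 1 to 3 was 6.26, 5.45 and 6.40, on pileups of 11, 10 and 9 reads. At chr6:26216465-26216994 it was 5.63, 5.61 and 4.96, on 10, 13 and 8 reads. At chr6:26285447-26286001 it was 4.84, 7.22 and 6.67, on 10, 13 and 11 reads. All 3 sat at pileups no higher than 13 reads in any shSCR library.

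Another 4 reproducible regions lay in cluster 1. At chr6:26172065-26172358 the fold was 5.48, 7.16 and 8.38 in shSCR and 7.0 and 7.2 in shG9a_4 libraries 2 and 3. At chr6:26204850-26205197 it was 5.77, 5.95 and 6.08 in shSCR, 4.01 in shG9a_1 library 2 and 4.79 in shG9a_4 library 1. At chr6:26273213-26273739 it was 5.72, 6.41 and 5.98 in shSCR and 5.09 and 3.77 in shG9a_4 libraries 2 and 3. At chr6:26286030-26286438, the weakest of the 10, it was 5.11, 6.01 and 4.79 in shSCR and 5.78 in shG9a_4 library 2. None of these 4 was called in more than 2 shG9a libraries. In the same order, their pileups in shSCR were 8, 14 and 11, then 9, 11 and 8, then 12, 15 and 10, then 9, 14 and 9 reads. Low pileups were thus not particular to the lost regions.

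In cluster 2 the single reproducible region, at chr6:27113614-27114084, was the member called most often with the hairpins. Its fold was 4.84, 9.22 and 6.06 in shSCR, 7.83 and 4.53 in shG9a_1 libraries 2 and 3 and 7.23 and 8.0 in shG9a_4 libraries 2 and 3. In cluster 3, the region at chr6:27775203-27775645 had folds of 5.40, 7.51 and 7.56 in shSCR, 7.79 and 4.98 in shG9a_1 libraries 2 and 3 and 4.24 in shG9a_4 library 2. The strongest member, at chr6:27805016-27806271, was the widest at 1256 bp. Its fold was 11.8, 9.01 and 9.37 in shSCR and 9.81, 8.20 and 8.14 in the 3 shG9a_4 libraries, while no shG9a_1 library called it. Summits of the 10 regions lay 14 to 249 bp apart between the shSCR libraries (median 103.5 bp).

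Member regions were weak among the reproducible ones. The median member lay at the 16.2th percentile of strength among all reproducible regions, the median flank region at the 74.4th and the gap at the 33.5th. Strength was the mean percentile of the −log10 p-value in the shSCR lists. Among regions of the same strength decile genome-wide, 18.3 calls were expected over the 6 shG9a libraries for the 10 members, and 17 were found. The mean difference per library was -0.21 calls (exact sign-flip permutation p = 0.625, range -1.62 to 0.66). In the 113-peak library 0 member calls were expected and 0 found, so its difference could only be 0. Without that library the mean was -0.25 calls (exact sign-flip permutation p = 0.625). In the flank 33 calls were found and 32.6 expected (exact permutation p = 0.812). The mean number of shG9a libraries that called a reproducible region was 1.70 for members, 4.13 for the flank and 3.25 over all regions. The like-strength difference of the members moved with single libraries: it was -1.43 calls (exact permutation p = 0.0625) without shSCR library 3, -1.10 (exact p = 0.0938) without shSCR library 1 and 0.0693 (exact p = 0.875) without shG9a_1 library 3.

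The same question was put to every shSCR member peak, reproducible or not, after the data were seen. Of the 105 peaks, 0, 9 and 16 were also called in libraries 1 to 3 of shG9a_1 and 8, 27 and 18 in those of shG9a_4. Shares were taken per shSCR list and averaged over the 3 lists, each list counted alike. These means were 0%, 10.2% and 14.5% with shG9a_1 and 8.41%, 29.4% and 19.3% with shG9a_4. Peaks of like strength in the same lists, averaged likewise, gave 0.0954%, 24.8%, 30%, 24.4%, 41.4% and 29.6%. All 6 libraries were thus below, with a mean difference of -11.4 points (exact sign-flip permutation p = 0.0312, the smallest 6 libraries allow). The 113-peak library, with 0.0954% expected, could hardly have a difference of the size seen in the others. With it left out the mean was -13.7 points (exact permutation p = 0.0625, the smallest possible). All of these differences use the same shSCR peaks, so the p-values cover the spread between shG9a libraries only. Between shSCR libraries the mean differences were -8.75, -2.83 and -7.58 points with libraries 1, 2 and 3 as the second library. They were not alike for each list. Peaks of library 1 were called in library 2 more often than like peaks (3.69 points), as were peaks of library 2 in library 1 (6.27 points). The 18 peaks of library 3 gave -23.8 points in library 1 and -9.35 in library 2, and library 3 as the second library gave -11.3 and -3.84. The control means below 0 thus rest on pairs that include library 3. Its peaks weighed on the hairpin mean too. With the 113-peak library left out, they gave -33.6 to -14.0 points in the shG9a libraries. Peaks of library 1 gave -15.2 to -8.89 there and those of library 2 -10.5 to -3.56. Without shSCR library 3 the mean over all 6 shG9a libraries was -7.54 points (exact sign-flip permutation p = 0.0312). That p again counts the 113-peak library, and 5 libraries could not go below 0.0625. The hairpin and control shortfalls differed by 5.05 points (exact permutation p = 0.262). The gap showed a difference of -10.4 points in the shG9a libraries (exact p = 0.0312), and the flank one of 3.39 points (exact p = 0.125), the 113-peak library counted in both.

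**Figure D4:**
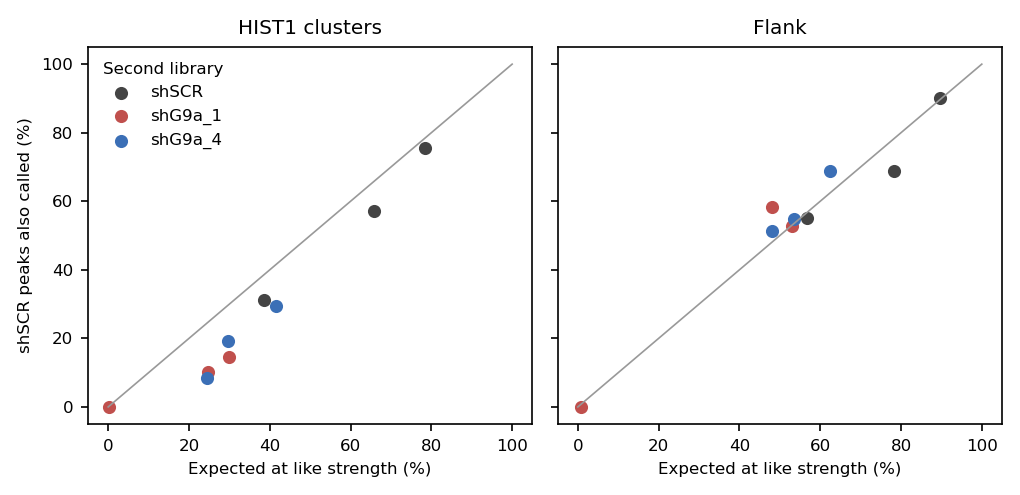
Percent of shSCR peaks also called in a second library (y axis) against the percent for all peaks of like strength (x axis), each a mean over shSCR lists. Peaks in the HIST1 clusters are on the left and those in the flank on the right, with 1 point per second library and a line of equality. All cluster points lie on or below the line, whether the second library is shSCR or shG9a, while flank points lie on both sides.

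Replication-dependent histone genes also sit outside 6p22, at HIST2 on 1q21, HIST3 on 1q42 and HIST4H4 on 12p12, and windows around them, set from general knowledge of hg19, were searched in the same way. HIST2 had 8 regions, of which 4 were reproducible, and 1 of these was lost. That region, at chr1:149858965-149859573, had folds of 3.86, 6.68 and 5.27 in shSCR. HIST3 had 4 regions, of which 2 were reproducible. The one at chr1:228644915-228645607 was kept, with folds of 10.2, 12 and 8.74 in shSCR, 7.53 and 7.53 in shG9a_1 libraries 2 and 3 and 8.51, 10.6 and 8.02 with shG9a_4. The other, at chr1:228646065-228646527, was neither kept nor lost, with folds of 5.15, 9.02 and 8.51 in shSCR, 6.76 in shG9a_1 library 3 and 4.30 and 6.55 in shG9a_4 libraries 1 and 2. HIST4H4 had 3 regions, and its reproducible region at chr12:14922804-14924185 had folds of 8.65, 7.01 and 5.12 in shSCR and 5.92 and 4.06 in shG9a_4 libraries 2 and 3. HIST2 peaks numbered 7, 8 and 6 in shSCR and 0 to 3 with the hairpins, 2 groups that do not overlap, as the whole lists do not. HIST3 peaks did overlap, with 3, 3 and 2 in shSCR, 0, 2 and 2 with shG9a_1 and 3, 2 and 1 with shG9a_4.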

How the data were processed

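The 9 MYC libraries were 3 shSCR, 3 shG9a_1 and 3 shG9a_4 peak lists in hg19. The submitters' processing notes name MACS2 2.1.0, Picard 2.7.1, SAMtools 1.3 and STAR 2.5.2a. What each did, and with which filters, was not given in the sources used here. The deposited lists give, for each peak, the authors' fold enrichment (a ratio), −log10 p-value, −log10 q-value and a score, and peaks were called per library by the authors. The deposited −log10 values were used to rank and filter peaks within a list. The authors' folds are printed for single regions in each library, and their medians were compared between clusters and flank within each library; the folds were not tested between hairpins. Peaks off chromosomes 1 to 22 and X (192) were left out. Peaks overlapping by at least 1 bp were merged into regions. Peak pileups were recovered from fold and p-value with a misfit of at most 0.001 (100% of peaks), and the recovery was checked on made-up peaks of known pileup. The members, windows and tests were chosen with earlier results of these data known. Every test was a two-sided exact permutation over libraries, which went through every arrangement. The exact binomial intervals and the pileup recovery used scipy 1.17.1. Like strength used 10 classes of −log10 p. The planned limma comparison of regions called in 8 libraries had no member region to rank. Text names each lost region and all other reproducible regions. The number of reads per library is unknown, so the length of each list stands beside its counts.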

Additional observations from a re-analysis of the deposited data

How the results depend on the processing

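The member count difference (29.8) was 19.2 with −log10 q of at least 5 and 23.5 with fold of at least 5, each with an exact permutation p of 0.0238. With the replicate block, which permutes within replicate numbers, the differences stayed at 29.8 peaks and 0.0825 points but the p was 0.0741, the smallest that block allows. Numbers were not read as pairs. Same-number libraries correlated at -0.10 to 0.18 over regions (median 0.030), and different-number libraries at -0.29 to 0.22 (median -0.018). Both ends of the latter range were pairs with the 113-peak library. Without that library, different-number pairs lay between -0.13 and 0.13. The same-number pair of shSCR and shG9a_1 replicate 3 (0.18) was above these, so the correlations do not settle whether numbers are pairs. The difference in list share was 0.0131 points with equal lists. Cluster density less flank was 11.0 with −log10 q of at least 5. Median fold was -1.71 there but 0.38 with the gap as flank. The share among cluster and flank peaks was 38.2 points with −log10 q of at least 5, 9.01 with equal lists and 9.36 against the gap. Calls at like strength were -0.16 to -0.34 under other settings. Reproducible members numbered 5 with −log10 q of at least 5 and 1 with equal lists, and lost members 0 with equal lists.

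Leaving out 1 library moved the member count difference between 24.3 and 38.3, its list share between 0.0737 and 0.0977 points, density between 16.0 and 27.1, median fold between -1.83 and -1.34, the cluster share between 27.1 and 33.9 points, calls at like strength between -1.43 and 0.0693 (the latter without shG9a_1 replicate 3) and single-list shortfall between -13.7 and -7.54 points. Reproducible members ranged from 10 to 27, lost ones from 3 to 15 and kept ones from 0 to 1; the 27 and 15 came without shSCR replicate 3. Leaving out a shSCR library left an exact p of 0.0714 for the count, the smallest for 2 against 6. The planned limma rank was not run because no member region was called in 8 libraries. Precision is limited by summit pileups of 5 to 22 reads and by 3 libraries a group.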
